A study of Homo sapiens with 8 samples.

Results

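The genes described here are 9 genes of the FOXO pathway, chosen by symbol. They are the transcription factor genes FOXO1, FOXO3 and FOXO4 and the FOXO targets KLF2, S1PR1, TXNIP, PIK3IP1, CCNG2 and IRS2. All 9 were among the 18133 genes with messenger RNA values in DND41 cells, an established line of human T-cell acute lymphoblastic leukemia. Every culture received doxycycline for 72 h, which switched on a short hairpin RNA (shRNA). The hairpin was one of the SIRT1 constructs sh1 (3 libraries, A, B and C) and sh3 (3 libraries, A, B and C) or a control shRNA (2 libraries, A and C), and a control B was not analysed here. The labels say that cells were plated in triplicate and name no separate infections, so p-values here reflect only how these cultures varied, and that variation may be technical. The labels of sh3 C disagree, with a title and genotype of SIRT1 knockdown and a description that names the control hairpin. It was analysed with sh3.

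FOXO factors are forkhead transcription factors that act in the nucleus when signalling through PI3K and AKT is low. AKT phosphorylates them, 14-3-3 proteins then bind them, and they leave the nucleus. SIRT1 is a nuclear NAD-dependent deacetylase, and FOXO proteins are among its known substrates. In resting lymphocytes FOXO1 maintains genes of quiescence, homing and survival, among them KLF2 and IL7R. FOXO activity is set largely on the protein, which messenger RNA values do not measure.

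The promoters of the 4 members that passed the test in some comparison are shown first, because TXNIP, PIK3IP1 and FOXO1 differed in 1 direction between the constructs and CCNG2 differed from control. Each sequence is a RefSeq window of 300 bases on GRCh38.p14, from 250 bases before to 50 bases after an annotated start, read along the gene. Capitals mark matches on either strand to the forkhead core GTAAACA (reverse complement TGTTTAC) or to AAACAA (reverse complement TTGTTT). The FOXO1 window holds neither. TXNIP and PIK3IP1 have 2 windows each, and for both the window with a match is printed, since the other holds neither motif.
FOXO1, chr13:40666592-40666891, minus strand: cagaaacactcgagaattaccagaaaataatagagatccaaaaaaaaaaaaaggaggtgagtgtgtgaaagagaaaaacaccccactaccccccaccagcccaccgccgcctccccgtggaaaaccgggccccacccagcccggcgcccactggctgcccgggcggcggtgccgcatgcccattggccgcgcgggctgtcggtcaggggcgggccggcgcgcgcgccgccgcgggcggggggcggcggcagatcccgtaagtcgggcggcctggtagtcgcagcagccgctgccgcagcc
TXNIP, chr1:145996530-145996829, minus strand: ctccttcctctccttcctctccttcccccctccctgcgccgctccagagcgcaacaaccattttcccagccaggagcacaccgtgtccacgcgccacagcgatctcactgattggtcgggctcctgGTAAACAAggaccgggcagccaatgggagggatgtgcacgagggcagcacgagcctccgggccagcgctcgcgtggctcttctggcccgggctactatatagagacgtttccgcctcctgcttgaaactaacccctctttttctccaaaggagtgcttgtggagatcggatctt
PIK3IP1, chr22:31292439-31292738, minus strand: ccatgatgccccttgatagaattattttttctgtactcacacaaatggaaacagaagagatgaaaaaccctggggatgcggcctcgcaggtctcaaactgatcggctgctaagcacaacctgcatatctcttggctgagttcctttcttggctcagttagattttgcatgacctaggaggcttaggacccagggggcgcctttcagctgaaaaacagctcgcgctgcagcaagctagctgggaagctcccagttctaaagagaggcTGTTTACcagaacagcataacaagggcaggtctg
CCNG2, chr4:77156957-77157256, plus strand: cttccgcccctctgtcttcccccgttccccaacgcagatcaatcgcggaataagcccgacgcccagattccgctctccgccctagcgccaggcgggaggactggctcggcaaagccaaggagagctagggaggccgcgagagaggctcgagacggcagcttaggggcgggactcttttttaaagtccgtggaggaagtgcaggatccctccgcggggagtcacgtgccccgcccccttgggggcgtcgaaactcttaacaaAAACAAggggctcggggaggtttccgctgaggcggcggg

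In the printed TXNIP window GTAAACA began at position -124 from the start and overlapped an AAACAA match at -122. In PIK3IP1 the match lay on the opposite strand at position 17 past the start, and in CCNG2 the match was AAACAA at position 12. Across the 14 windows of the 9 genes, 3 held GTAAACA (TXNIP, PIK3IP1 and FOXO4) and 5 held AAACAA (TXNIP, CCNG2, FOXO3 in 2 windows, and IRS2). Of all 35116 RefSeq windows of the same length, 3.42% held GTAAACA and 17.9% held AAACAA. A match describes letters only, and its absence says nothing of binding.

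The targeted gene was lower in every knockdown library. SIRT1 stood at 1259, 1312 and 1329 normalized counts in sh1, at 1099, 1217 and 1179 in sh3, and at 1745 and 1920 in control. The deposited values are normalized counts per gene symbol, and they sum to 33088000 to 34073000 in each library. Differences are log2 differences of value + 1 from limma, and a gene is called at a Benjamini-Hochberg adjusted p under 0.05 over the 13885 genes that averaged 10 or more. On that scale SIRT1 was -0.57 ± 0.063 (SE) over both constructs against control (adjusted p = 0.00030), and its mean fell by 29.1% in sh1 and by 36.4% in sh3. The constructs differed in SIRT1 by 0.16 for sh1 over sh3 (adjusted p = 0.14). The sh3 C library had a Spearman correlation across genes of at least 0.9955 with the other sh3 libraries and at most 0.9925 with the controls. Counting it as a control ended every call of the 9 genes and that of SIRT1 (-0.37, adjusted p = 0.27). It also ended the calls of the other genes named below, except the difference of IRS1 between the constructs.

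The cultures carried T lineage transcripts. In normalized counts, 8 of the 9 T lineage markers in the table averaged at least 10, and TRBC2 lay at or near 0. The summed T lineage level ran at 71148 to 75184 in sh1 and 63546 to 64191 in sh3, against 82894 to 86826 in control. The summed B list ran at 18026 to 19718 in sh1 and 24072 to 25492 in sh3, against 24455 to 26211 in control, and nearly all of it was CD79A. PAX5 and CD22 were low, with averages of 2.03 and 5.66. Each of the 6 myeloid and 3 erythroid markers in the table averaged under 10. The 2 NK markers in the table, NKG7 and KLRD1, averaged 701 and 101, and their sum ran at 685 to 822 in sh1 and 838 to 939 in sh3, against 760 to 781 in control, so that all sh3 libraries lay above control. The adherent list summed to 25038 to 26497 in sh1 and 25235 to 26672 in sh3, against 26439 to 26840 in control, nearly all of it VIM, and PECAM1 averaged 649. These levels move with the groups, and their part in the results below was not tested. In bulk RNA, fewer cells of a kind and less RNA per cell cannot be told apart.

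Calls among the 9 genes were counted in each comparison, and a gene that was not called may still have changed. KLF2 fell under the minimum of 10, so 8 of the 9 could be tested. Over both constructs against control, 1 of the 8 was called, CCNG2, which was higher. In that comparison 12.7% of all tested genes were called, 6.55% higher and 6.19% lower. For sh1 against control, 2 were called, both higher (FOXO1 and CCNG2), with 6.31% of all genes called, 2.88% higher and 3.43% lower. For sh3 against control, 1 was called, lower (PIK3IP1), with 18.6% of all genes called, 9.36% higher and 9.19% lower. Between sh1 and sh3, 3 were called, all higher in sh1 (FOXO1, TXNIP and PIK3IP1), with 11.4% of all genes called, 5.61% higher and 5.83% lower. A count of 1 in 8 lies near or under the background over both constructs and for sh3, and the counts of 2 and 3 in 8 lie above it. No test was made of these counts. All comparisons with control use the same 2 control libraries.

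Groups can also be compared by whether their libraries overlap. Among the 8 genes tested, every knockdown library lay on one side of both controls for 1 gene, against 23.2% of all tested genes. For sh1 against control this held for 3, FOXO1, TXNIP and CCNG2, against 38.2%. For sh3 against control it held for 5, against 49.8%, and for sh1 against sh3 for 4, against 30.5%. The median log2 difference of the 8 genes was -0.0046 over both constructs against control, 0.012 for sh1, -0.063 for sh3 and 0.21 for sh1 against sh3. The same medians over all tested genes were -0.0022, -0.00044, 0.00034 and -0.0015.

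**Figure D1:**
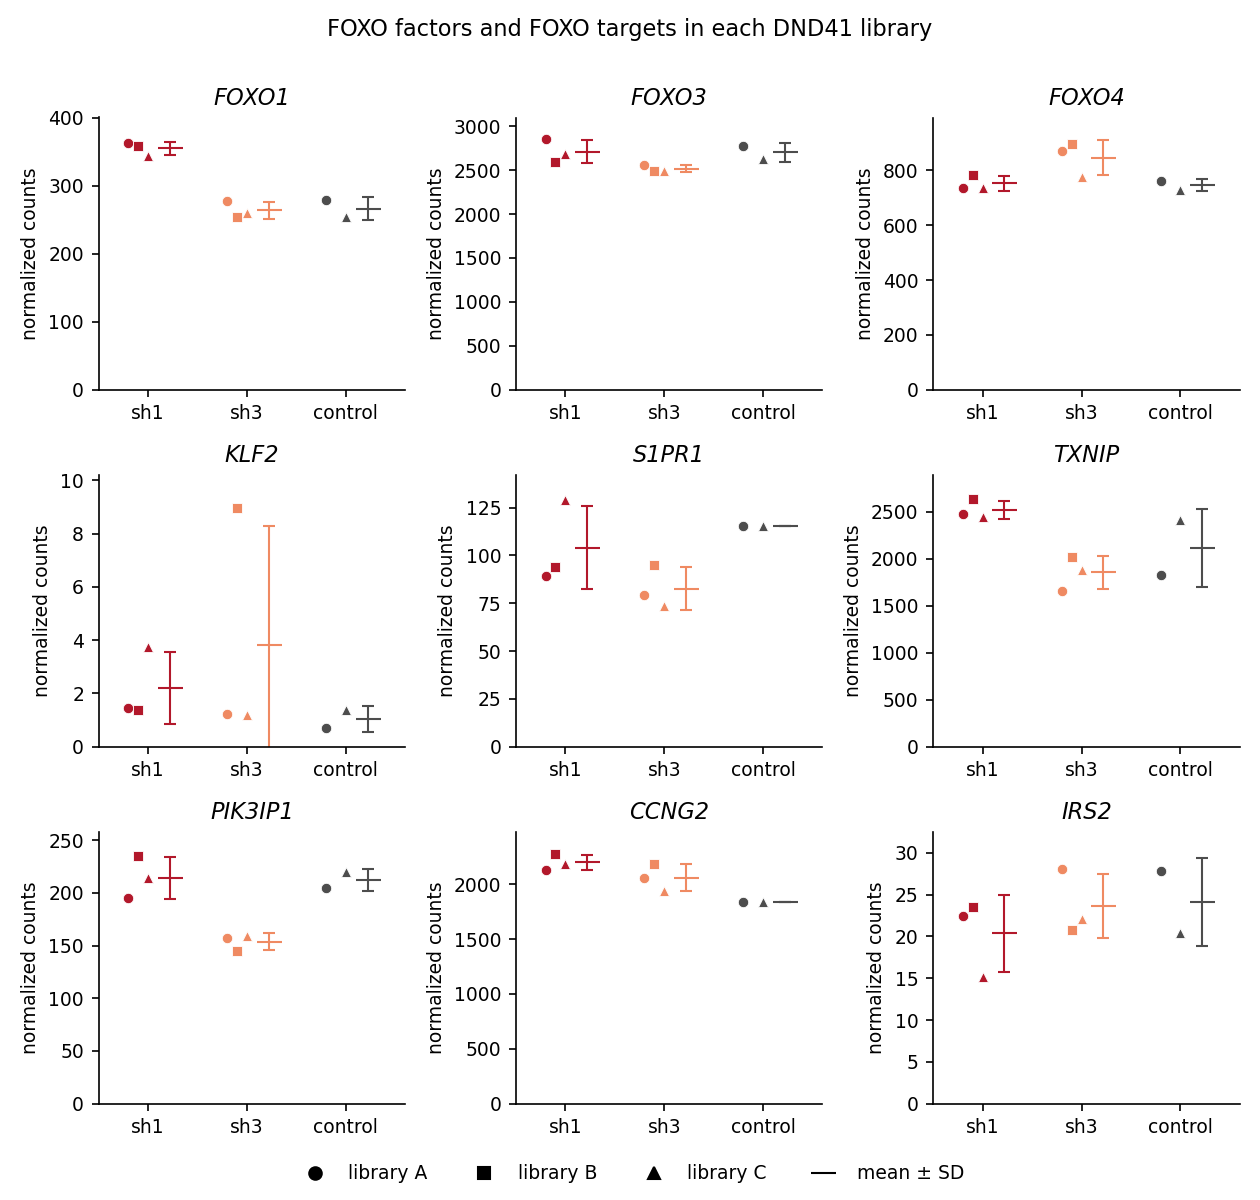
Normalized counts of the 9 genes (vertical axes, each from 0) in the sh1, sh3 and control libraries, with points for libraries A, B and C and bars for the mean ± SD (the lower bar of KLF2 in sh3 is cut at 0). FOXO1 and TXNIP are higher in all 3 sh1 libraries than in all 3 sh3 libraries, PIK3IP1 is lowest in sh3, and CCNG2 is lowest in the 2 controls.

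FOXO1, the factor most tied to lymphocyte homing, was higher with sh1 than with sh3 or control. It stood at 363, 358 and 344 normalized counts in sh1 A, B and C, at 278, 253 and 260 in sh3 A, B and C, and at 279 and 254 in control A and C. All 3 sh1 libraries lay above every other library, while sh3 and control overlapped. FOXO1 averaged 355 ± 9.65 in sh1 (SD, n = 3), 264 ± 12.7 in sh3 (SD, n = 3) and 266 ± 17.5 in control (SD, n = 2). The difference was 0.42 ± 0.10 (SE) for sh1 against control, or 33.4% higher (adjusted p = 0.040). For sh3 against control it was -0.013, with a 95% interval of -0.24 to 0.22 (adjusted p = 0.95). The direct difference between the constructs was 0.43 ± 0.093 (adjusted p = 0.013).

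The call of FOXO1 in sh1 against control did not survive leaving out any one of the 8 libraries. The adjusted p then ran between 0.052 and 0.25, highest without control C, while the difference stayed between 0.35 and 0.48. The difference between the constructs was called in all but 1 of these, without sh3 B (0.40, adjusted p = 0.053). FOXO1 lies on chromosome 13 from 40469953 to 40666597 on the minus strand of GRCh38 and overlaps the noncoding gene LINC00598 on the same strand, which is not among the genes measured.

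FOXO3 and FOXO4, the other factors, gave no call in any comparison. FOXO3 stood at 2851, 2595 and 2685 normalized counts in sh1, at 2563, 2495 and 2494 in sh3, and at 2776 and 2626 in control. All sh3 libraries lay below both controls, by -0.10 with a 95% interval of -0.23 to 0.024 (adjusted p = 0.25), and sh1 overlapped control. FOXO3B, a processed pseudogene copy, averaged 143 in sh1, 162 in sh3 and 176 in control, and reads shared between the copies make FOXO3 and FOXO3B uncertain.

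FOXO4 ran the other way. It stood at 736, 784 and 736 normalized counts in sh1, at 869, 896 and 774 in sh3, and at 761 and 730 in control. All sh3 libraries lay above both controls, but the difference of 0.18 ± 0.083 missed the threshold (adjusted p = 0.16). The sh1 group overlapped control, at 0.013 with an interval of -0.17 to 0.19, and sh1 against sh3 was -0.17 (adjusted p = 0.18). FOXO3 lies on chromosome 6 from 108559835 to 108684774 and FOXO4 on chromosome X from 71096197 to 71103535, both on the plus strand.

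The homing pair KLF2 and S1PR1 comes next. KLF2 is a quiescence factor that activates S1PR1, the receptor through which T cells leave lymphoid organs along a gradient of sphingosine 1-phosphate. KLF2 was barely detected. It stood at 1.45, 1.39 and 3.75 normalized counts in sh1, at 1.23, 8.98 and 1.20 in sh3, and at 0.697 and 1.38 in control. The lowest step between values was 0.88 to 1.15 normalized counts per library, so these levels rest on a few steps. The sh1 libraries lay above both controls, the nearest pair by far less than a step, and sh3 overlapped control, with sh3 B alone above the rest. With no minimum applied, the difference of KLF2 over both constructs against control was 0.73 ± 0.68 (SE, adjusted p = 0.59). A pseudogene copy, KLF2P4, is also in the table, which makes KLF2 uncertain. Processed pseudogene copies of FOXO1 (FOXO1B) and CCNG2 (CCNG2P1) are not among the genes measured. Their part in the FOXO1 and CCNG2 values was not tested.

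S1PR1 stood at 89.4, 93.8 and 129 normalized counts in sh1, at 79.5, 94.9 and 73.6 in sh3, and at 115.5 in both controls. All sh3 libraries lay below control, and the sh1 libraries lay on both sides of it. The difference for sh3 was -0.49 with a 95% interval of -0.92 to -0.050, and its adjusted p of 0.11 missed the threshold. For sh1 it was -0.17, with an interval of -0.60 to 0.27 (adjusted p = 0.67). KLF2 lies on chromosome 19 from 16324817 to 16327874 and S1PR1 on chromosome 1 from 101236865 to 101243713, both on the plus strand.

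TXNIP and PIK3IP1, which curb glucose uptake and PI3K signalling, differed between the constructs in the same direction as FOXO1. TXNIP binds thioredoxin and limits glucose transporters at the cell surface. It stood at 2479, 2634 and 2445 normalized counts in sh1 A, B and C, at 1662, 2017 and 1886 in sh3 A, B and C, and at 1827 and 2414 in control A and C. All sh1 libraries exceeded every sh3 and control library, while the controls lay far apart and spanned most of the sh3 values. TXNIP averaged 2519 ± 101 in sh1 (SD, n = 3) and 1855 ± 179 in sh3 (SD, n = 3). Its difference was 0.45 ± 0.097 (SE) for sh1 against sh3, 35.8% higher (adjusted p = 0.013).

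Against control TXNIP was not called for either construct. The difference was 0.26 with a 95% interval of 0.024 to 0.50 for sh1 (adjusted p = 0.18) and -0.18 with an interval of -0.42 to 0.055 for sh3 (adjusted p = 0.28). The control libraries decide the second value. With control A left out it was -0.38 (adjusted p = 0.035), and with control C left out it was 0.018 (adjusted p = 0.95). The call between the constructs missed the threshold without sh1 B (0.41, adjusted p = 0.052) and without sh3 A (0.37, adjusted p = 0.056). TXNIP lies on chromosome 1 from 145992435 to 145996600 on the minus strand.

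PIK3IP1 encodes a membrane protein that binds the catalytic subunit of PI3K and inhibits it. It stood at 195, 235 and 214 normalized counts in sh1, at 157, 145 and 160 in sh3, and at 205 and 220 in control. All sh3 libraries lay below every other library, and sh1 overlapped control. PIK3IP1 averaged 215 ± 19.9 in sh1 (SD, n = 3), 154 ± 8.03 in sh3 (SD, n = 3) and 212 ± 10.8 in control (SD, n = 2). The difference was -0.46 ± 0.13 (SE) for sh3 against control, where its mean fell by 27.6% (adjusted p = 0.031). For sh1 against control it was 0.012, with a 95% interval of -0.28 to 0.30 (adjusted p = 0.97). For sh1 against sh3 it was 0.48 ± 0.12 (adjusted p = 0.022).

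The size of the PIK3IP1 differences held with single libraries left out, while the calls did not. Against control the sh3 call ended without sh3 A (-0.48, adjusted p = 0.067), sh3 B (-0.42, adjusted p = 0.090), control A (-0.52, adjusted p = 0.076) or control C (-0.41, adjusted p = 0.19). Between the constructs it ended without sh1 B, sh1 C, sh3 A or sh3 B, with differences of 0.41, 0.48, 0.49 and 0.43 and adjusted p between 0.059 and 0.095. PIK3IP1 lies on chromosome 22 from 31281593 to 31292534 on the minus strand. Its first bases overlap the antisense gene PIK3IP1-AS1, and the sources used here do not say whether strand was used in counting.

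IRS2, an adaptor between the insulin and IGF1 receptors and PI3K, was low and did not separate the groups. It stood at 22.5, 23.5 and 15.1 normalized counts in sh1, at 28.0, 20.8 and 22.1 in sh3, and at 27.9 and 20.4 in control. Its differences carried wide intervals, from -0.78 to 0.51 over both constructs against control (-0.13, adjusted p = 0.81). A change of the size seen for FOXO1 was not detectable at that precision. IRS2 lies on chromosome 13 from 109752698 to 109786568 on the minus strand and overlaps the antisense gene AL162497.1.

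CCNG2 was the one gene of the 9 that was called over both constructs. It encodes cyclin G2, an atypical cyclin that accompanies cell cycle arrest. It stood at 2133, 2275 and 2188 normalized counts in sh1, at 2061, 2183 and 1936 in sh3, and at 1837 and 1836 in control. All 6 knockdown libraries lay above both controls, and sh1 and sh3 overlapped. CCNG2 averaged 2199 ± 71.6 in sh1 (SD, n = 3), 2060 ± 124 in sh3 (SD, n = 3) and 1837 ± 0.842 in control (SD, n = 2). The difference over both constructs was 0.21 ± 0.056 (SE), 15.9% higher (adjusted p = 0.032). It was 0.26 ± 0.063 for sh1 (adjusted p = 0.036) and 0.16 ± 0.063 for sh3 (adjusted p = 0.096), and the constructs differed by 0.095 for sh1 over sh3 (adjusted p = 0.32).

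The size of the CCNG2 difference held while its call did not. Leaving out the libraries sh1 B, sh3 A or sh3 B, or either control, gave 0.20, 0.21, 0.19, 0.21 and 0.21 over both constructs, with adjusted p between 0.061 and 0.19. For sh1 against control the call ended without sh1 B, sh1 C, sh3 A, control A or control C, at 0.23, 0.26, 0.26, 0.26 and 0.26, with adjusted p between 0.056 and 0.18. CCNG2 lies on chromosome 4 from 77157151 to 77433388 on the plus strand and overlaps the noncoding gene AC092674.1 on the opposite strand.

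**Figure D2:**
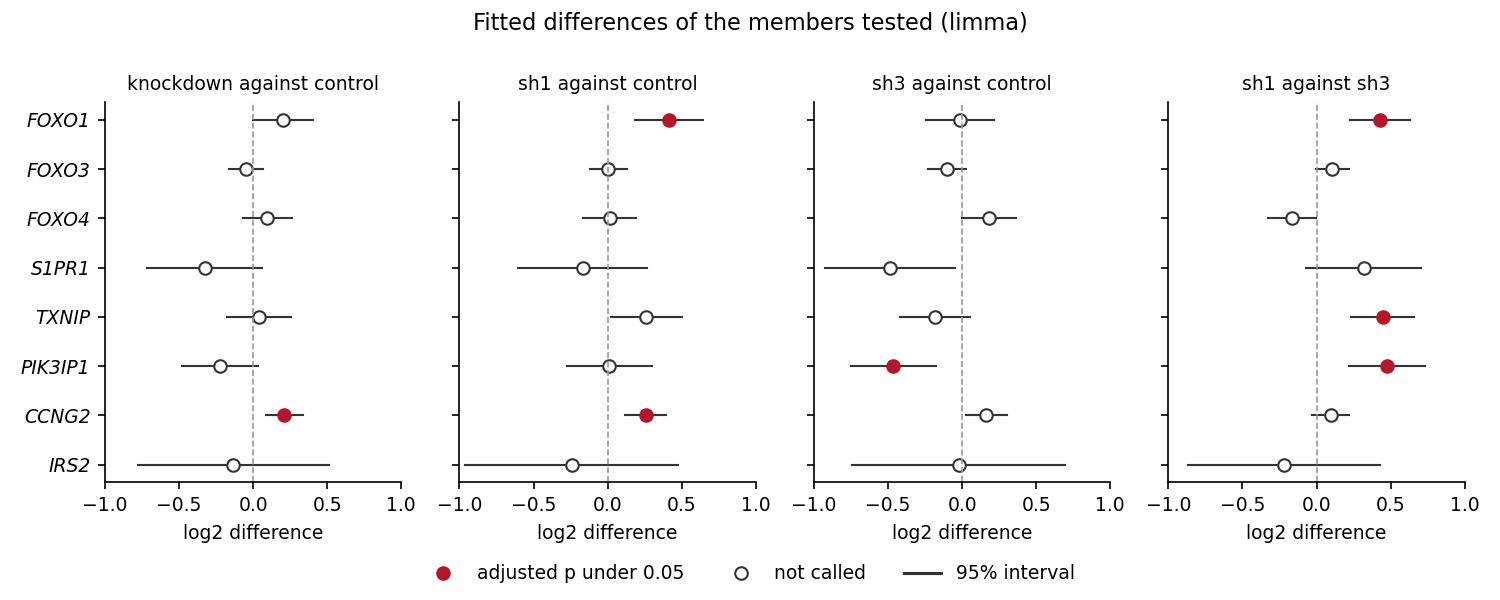
Fitted log2 differences (horizontal axes) of the 8 genes tested, with 95% intervals, in 4 comparisons. Filled points are called at an adjusted p under 0.05, and they are CCNG2 over both constructs, FOXO1 and CCNG2 for sh1, PIK3IP1 for sh3, and FOXO1, TXNIP and PIK3IP1 for sh1 against sh3.

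Other genes of the pathway were taken from lists, some of which include members. Their counts stand beside a background of 12.7% of all tested genes called over both constructs, 6.55% higher and 6.19% lower, and nothing particular to a list is read from them. In each of the lists the total called over both constructs was smaller without control C, which leaves 1 control. In the list of FOXO targets of lymphocyte homing and survival, with S1PR1 among 12 tested, 1 was higher and 3 were lower over both constructs, with a median of -0.15, against -0.0022 for all genes. Without control A 1 was higher and 1 lower, and without control C 0 were higher and 1 was lower. TNFSF10, which encodes the death ligand TRAIL, stood at 862, 801 and 795 normalized counts in sh1 and at 680, 697 and 700 in sh3, against 1280 and 1514 in control. Its difference was -0.89 ± 0.075 (SE, adjusted p = 6.0e-05), with no overlap between knockdown and control, and the call held without any one library. EOMES, a T-box factor of effector and memory cells, was lower by -0.76 (adjusted p = 0.011), and missed the threshold without control A (-0.69, adjusted p = 0.092) or control C (-0.84, adjusted p = 0.081). RAG1, which cuts antigen receptor genes, was the one higher gene (0.23, adjusted p = 0.0046), but not without control C (0.20, adjusted p = 0.084).

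In sh3 against control 2 of the 12 were higher and 5 were lower, and in sh1 against control 0 were higher and 2 were lower. Over all tested genes 18.6% were called for sh3 and 6.31% for sh1. IL7R, the receptor of the survival cytokine interleukin 7, differed between the constructs and was picked after its values were seen. It stood at 19405, 20444 and 19038 normalized counts in sh1 and at 15328, 14399 and 13901 in sh3, against 18162 and 18796 in control. The 3 sh3 libraries lay below all others. IL7R was -0.35 for sh3 against control (adjusted p = 0.0012) and 0.43 for sh1 against sh3 (adjusted p = 0.00014). Both calls of IL7R held without any one library.

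In the list of FOXO targets of cell cycle arrest, 4 of 15 tested, CCNG2 included, were higher and 1 was lower over both constructs, with a median of 0.10. Without control A 2 were higher and 0 lower, and without control C 1 was higher and 0 were lower. CDKN1B, which encodes the cyclin-dependent kinase inhibitor p27, stood at 5722, 6057 and 5972 normalized counts in sh1 and at 7048, 6818 and 6428 in sh3, against 4986 and 4932 in control. All knockdown libraries lay above control, at 0.35 ± 0.046 (adjusted p = 0.00099), and the call held without any one library. CDKN2D, which encodes p19, was higher by 0.56 (adjusted p = 0.0035), and BTG1, an antiproliferative gene, by 0.36 (adjusted p = 0.025). Without control C they stood at 0.40 (adjusted p = 0.074) and 0.45 (adjusted p = 0.080), and BTG1 without control A at 0.27 (adjusted p = 0.20). The sh1 libraries overlapped control for CDKN2D and for BTG1. CDKN2D ran at 605 to 645 normalized counts in sh1 and 1017 to 1181 in sh3, against 507 to 633 in control. For sh1 against sh3 CDKN2D was -0.82 (adjusted p = 0.00020), a comparison picked after its values were seen. The gene that was lower was CCND2, cyclin D2, which promotes the cycle and which FOXO represses. It averaged 6.33 normalized counts in sh1 and 13.0 in sh3, against 24.9 in control, and its call (-1.30, adjusted p = 0.042) held only without sh1 A among the 8 libraries left out, with adjusted p otherwise between 0.054 and 0.33.

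CDKN1A, which encodes p21, did not follow CDKN1B. This gene was picked after its values were seen. It stood at 166, 128 and 117 normalized counts in sh1 and at 43.2, 30.9 and 38.7 in sh3, against 110 and 102 in control. The sh3 libraries lay far below all others, at -1.48 against control (adjusted p = 0.00092) and 1.84 for sh1 against sh3 (adjusted p = 0.00011), and both calls held without any one library.

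FOXO targets of stress and metabolism gave 2 higher and 1 lower of 18 tested, TXNIP, PIK3IP1 and IRS2 included, over both constructs, near the 12.7% of all tested genes called, with a median of -0.056. Without control A the counts were 1 and 0, and without control C they were 0 and 0. GABARAPL1, an autophagy gene, was higher by 0.61 (adjusted p = 0.016) and KLHL24, a ubiquitin ligase adaptor, by 0.35 (adjusted p = 0.017). FBXO32, which encodes atrogin-1, was lower by -0.59 (adjusted p = 0.033). All 3 calls ended without control C, at 0.50 (adjusted p = 0.18), 0.30 (adjusted p = 0.18) and -0.41 (adjusted p = 0.33). Without control A, KLHL24 was 0.39 (adjusted p = 0.057) and FBXO32 was -0.77 (adjusted p = 0.052). FBXO32 was -0.58 without sh3 B (adjusted p = 0.062) and -0.57 without sh3 C (adjusted p = 0.056). FBXO32 ran at 75.3 to 100 normalized counts in sh1 and 132 to 154 in sh3, against 149 to 190 in control. Its sh3 libraries overlapped control, while all its sh1 libraries lay below.

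Upstream, receptors, adaptors and PI3K subunits gave 3 higher and 1 lower of 16 tested, with a median of 0.036, and 0 of either kind without control C. PIK3CA and PIK3CB, the catalytic subunits alpha and beta, were higher by 0.41 (adjusted p = 0.0096) and 0.23 (adjusted p = 0.022), and INPP4B, a phosphoinositide phosphatase, by 0.29 (adjusted p = 0.0069). IGF1R, the receptor upstream of IRS2, was lower by -0.46 (adjusted p = 0.0092). Each of these calls ended without control C, with values of 0.24, 0.22, 0.27 and -0.37 and adjusted p of 0.16, 0.16, 0.095 and 0.15, and that of PIK3CB also without control A (0.23, adjusted p = 0.095). IRS1, the paralog of IRS2 and picked after its values were seen, stood at 2720, 3067 and 2843 normalized counts in sh1 and at 1657, 1599 and 1898 in sh3, against 2568 and 2348 in control. It was -0.52 for sh3 against control (adjusted p = 0.0016) and 0.75 for sh1 against sh3 (adjusted p = 8.8e-05). IGF1R had the same split, at -0.81 for sh3 against control (adjusted p = 0.00042) and 0.71 for sh1 against sh3 (adjusted p = 0.00052). INPP4B split the other way, at 2734 to 3110 normalized counts in sh1 and 3785 to 4002 in sh3. Control ran at 2729 to 2807, so sh1 overlapped it. INPP4B was 0.49 for sh3 against control (adjusted p = 0.00038) and -0.40 for sh1 against sh3 (adjusted p = 0.00071). These comparisons of IGF1R and INPP4B were also picked after their values were seen. The sh3 calls and the between-construct calls of IRS1 and IGF1R held without any one library.

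Kinases and phosphatases upstream of FOXO, with subunits of their complexes, gave 5 higher and 0 lower of 22 tested, with a median of 0.025. Over all tested genes 6.55% were higher and 6.19% lower. Without control C none of the 22 was called in limma, 0 higher and 0 lower. Among them were STK3, which encodes the kinase MST2 that phosphorylates FOXO (0.32, adjusted p = 0.0060), CDK2 (0.21, adjusted p = 0.0082) and PHLPP1, a phosphatase of AKT (0.41, adjusted p = 0.024). Without control C they stood at 0.31 (adjusted p = 0.075), 0.18 (adjusted p = 0.11) and 0.29 (adjusted p = 0.27).

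Among 19 tested genes of FOXO binding, export, acetylation and turnover, 1 was higher and 4 were lower, 1 of them SIRT1 itself, with a median of -0.018. Without control A 0 were higher and 3 lower, and without control C 0 were higher and 2 lower. YWHAG and YWHAB, which encode 14-3-3 proteins, were lower by -0.29 (adjusted p = 0.0015) and -0.20 (adjusted p = 0.030), while YWHAH, another 14-3-3 gene, was higher by 0.17 (adjusted p = 0.022). YWHAG kept its call without any one library. YWHAB missed it without sh3 A (-0.18, adjusted p = 0.064), sh3 B (-0.20, adjusted p = 0.056) and control C (-0.12, adjusted p = 0.34), and YWHAH without sh3 A (0.17, adjusted p = 0.051), control A (0.18, adjusted p = 0.099) and control C (0.17, adjusted p = 0.16).

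**Figure D3:**
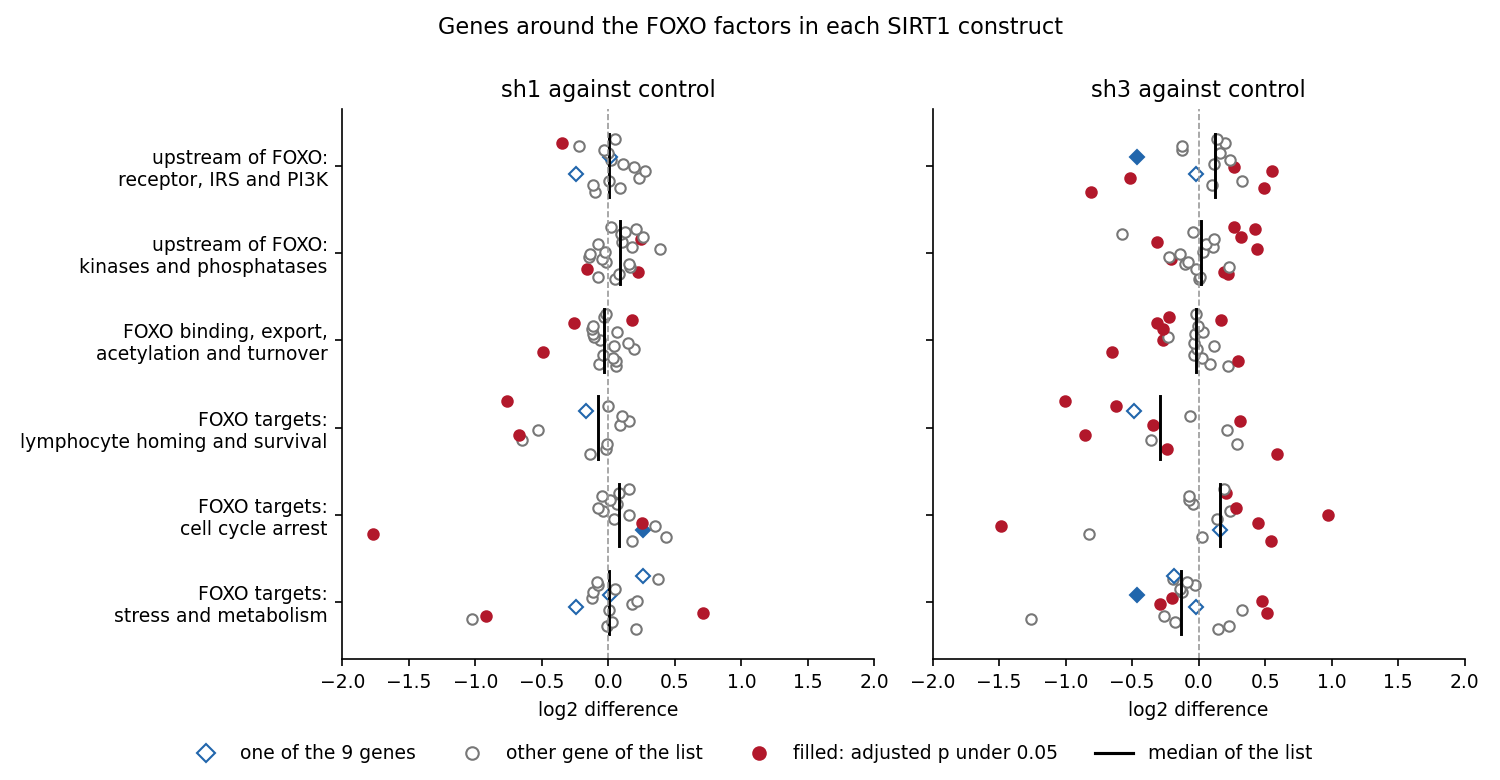
Fitted log2 differences (horizontal axes) of tested genes in 6 lists around the FOXO factors, for sh1 against control and sh3 against control, with a bar at each list's median. Diamonds are genes of the 9, circles are other genes, and filled marks have an adjusted p under 0.05. In the homing and survival list 2 genes are called for sh1 and 7 for sh3, against 6.31% and 18.6% of all tested genes.

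The families of the targets were examined in the same way. Of 10 tested KLF genes, 1 was higher and 1 lower over both constructs. KLF16 was lower by -0.59 (adjusted p = 0.00040), a call that held without any one library. KLF10 was higher by 0.46 (adjusted p = 0.033), and its call ended without sh1 B, sh3 A, sh3 B or control C, at 0.47, 0.45, 0.45 and 0.25, with adjusted p between 0.053 and 0.38. KLF6, an early response gene, was picked after its values were seen. It averaged 8492 in sh1 and 6165 in sh3, against 7529 in control, in normalized counts. For sh1 against sh3 it was 0.46 (adjusted p = 0.00010).

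Of 13 tested genes of sphingosine 1-phosphate signalling, 0 were higher and 1 was lower, SPHK2, a kinase that makes the ligand (-0.29 with an adjusted p of 0.024, and -0.20 with 0.27 when control C was left out). SPHK1, the other such kinase, was picked after its values were seen. It averaged 195 in sh1 and 115 in sh3, against 156 in control, in normalized counts. For sh1 against sh3 it was 0.76 (adjusted p = 0.0025). S1PR4, a further receptor of the ligand, stood at 1954, 2030 and 2071 in sh1 and at 2174, 2525 and 2262 in sh3, against 2060 and 2027 in control. It gave no call, at 0.18 for sh3 against control (adjusted p = 0.089).

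Around TXNIP, 1 of 12 tested partners and arrestin relatives was higher and 1 lower. SLC2A3, which encodes the glucose transporter GLUT3, stood at 1931, 2061 and 1595 normalized counts in sh1 and at 3329, 3254 and 2649 in sh3, against 1375 and 1181 in control. It was higher by 0.90 (adjusted p = 0.00053), and the call held without any one library. ARRDC4, an alpha-arrestin relative of TXNIP, was lower by -0.41 (adjusted p = 0.024), and stood at -0.26 with an adjusted p of 0.305 when control C was left out. Like TXNIP it was higher in sh1 than in sh3, by 0.59 (adjusted p = 0.0039), a comparison picked after its values were seen. ARRDC4 averaged 688 in sh1 and 460 in sh3, against 752 in control, in normalized counts.

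Of 4 tested genes of the cyclin G list CCNG2 alone passed. CCNG1 stood at 3958, 3926 and 4226 normalized counts in sh1 and at 4266, 4236 and 4005 in sh3, against 3766 and 3710 in control. All knockdown libraries lay above control, and the difference of 0.13 missed the threshold (adjusted p = 0.088). Of 16 tested forkhead relatives 2 were higher and 1 lower. FOXJ3 was higher by 0.25 (adjusted p = 0.0093), but not without control C (0.23, adjusted p = 0.12), and FOXJ2 by 0.18 (adjusted p = 0.036), while FOXN3 was lower by -0.20 (adjusted p = 0.0496). The calls of FOXJ2 and FOXN3 each ended without several single libraries, among them control A (0.20 with an adjusted p of 0.099, and -0.17 with 0.25) and control C (0.15 with an adjusted p of 0.25, and -0.23 with 0.16).

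The genes whose pattern over the 8 libraries was most like that of each member, among genes averaging at least 50, are given as a description. The libraries fall into 3 groups, so that any pair of genes that separates the groups alike will rank high. Each closest gene was also picked from all of these genes over only 8 libraries, and that choice alone favours a high r. FOXO1 was closest to USP15 (Pearson r = 0.98) and ZNF215 (0.97), TXNIP to MIEF2 (0.97) and FZD2 (0.96), PIK3IP1 to CYCS (0.99) and YRDC (0.98), and CCNG2 to CHAMP1 (0.97) and LEPR (0.96). For FOXO3 the closest were WASH8P (0.96) and CCNL2 (0.95), for FOXO4 ZNF680 (0.98) and AC073869.1 (0.97), for S1PR1 CLEC4A (0.95) and FP565260.6 (0.94), and for IRS2 STAG3L5P (0.97) and ARIH1 (0.92). Among the members TXNIP and PIK3IP1 reached 0.72 and FOXO1 and TXNIP 0.65, while FOXO4 and PIK3IP1 stood at -0.77.

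How each call fared over the alternatives differed by comparison. Of 17 alternatives for the difference between the constructs, FOXO1 kept its call in 15, TXNIP in 13 and PIK3IP1 in 12. Against control, FOXO1 kept its call for sh1 in 7 of 17, PIK3IP1 for sh3 in 11 of 17, and CCNG2 for sh1 in 9 of 17 and over both constructs in 9 of 18. In each of these the direction was the same under every alternative.

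**Figure D4:**
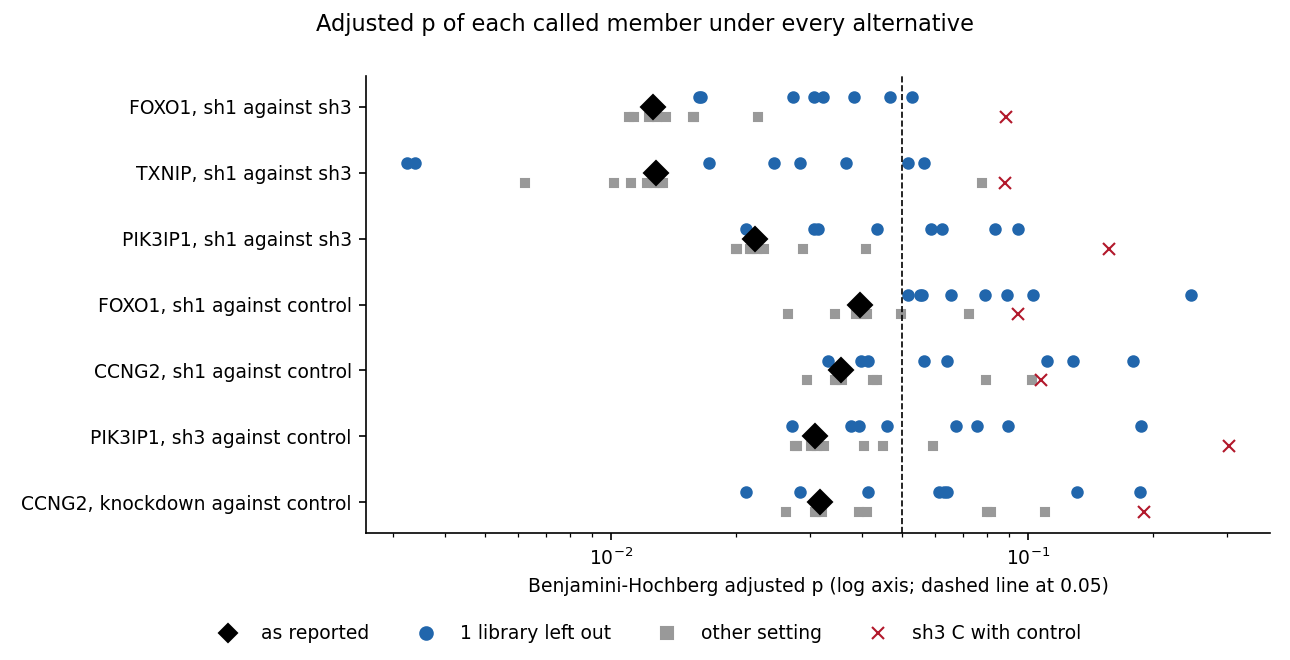
Adjusted p (horizontal log axis, dashed line at 0.05) of the 7 calls among the 9 genes, as reported, with 1 library left out, with sh3 C counted as a control, and under the other settings. Counting sh3 C as a control puts all 7 calls past 0.05, and leaving out a library leaves FOXO1 between the constructs past it once.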

How the data were processed

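RNA from DND41 cells was sequenced from strand-specific libraries after 72 h of doxycycline, per the labels' protocols. Each deposited value is a signal, the normalized count of a gene symbol. Tools named in the submitters' processing notes are kallisto 0.44.0 and DESeq, with the build hg38. Annotation, gene-level summary and filters of the authors are not stated in those sources. Libraries were grouped by their titles, and 0 columns were left unmapped. The values are not whole numbers and sum to 33088000 to 34073000 per library after the authors' scaling, so the read depth is unknown and no test for counts was used.

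The values were analysed as log2(value + 1) in limma 3.58.1 (R 4.3.3) for 13885 of 18133 genes, those whose mean over the 8 libraries reached 10. Fold changes share that scale, so changes of low genes are understated. The model held 3 group means with 5 residual degrees of freedom, a variance prior that followed the mean, two-sided tests and Benjamini-Hochberg adjustment over all tested genes. The alternatives changed the pseudocount, the minimum, the scaling, the variance prior, the replicate block, the group of sh3 C and the libraries used.

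The members, gene lists and tests were chosen with earlier results of these data known. The text names the 9 members, SIRT1, up to 3 genes per list and direction by smallest p over both constructs, the 2 genes closest to each member, and genes of the KLF, sphingosine 1-phosphate and cyclin G lists. Genes named outside that rule are marked in the text. Comparisons by construct of KLF6, SPHK1, ARRDC4, IGF1R, CDKN2D and INPP4B were also picked after their values were seen. A gene that the rule took is not reported here, and counts include it. Gene positions are from GENCODE release 29 on GRCh38, and promoter sequences are from RefSeq, in which all 9 members matched by symbol.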

Additional observations from a re-analysis of the deposited data

Results flagged for a closer look

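KLF2 stood at 8.98 normalized counts in sh3 B, apart from the other 5 of the 6 knockdown libraries, which ran from 1.20 to 3.75. Of 10 genes examined in this way over the 6 knockdown libraries KLF2 alone stood out. Chance gives such a gap in about 1 of 20 groups of normal values from 1 population. KLF2 values rest on a few steps and the libraries come from both constructs, so that rate does not apply to it. The responses to the constructs differed by a direct test in FOXO1 (0.43 for sh1 against sh3, adjusted p = 0.013), TXNIP (0.45, adjusted p = 0.013) and PIK3IP1 (0.48, adjusted p = 0.022), each on the log2 scale in limma and each higher in 3 of 3 sh1 libraries than in all 3 sh3 libraries. SIRT1 itself was 0.16 higher in sh1 than in sh3 (adjusted p = 0.14), and its part in these differences was not tested.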

How the results depend on the processing

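The pseudocount, a minimum of 0 or 50 and TMM rescaling of the deposited values ended none of the 7 calls of members. Members called were 1 over both constructs, 2 for sh1, 1 for sh3 and 3 for sh1 against sh3. Without a variance trend they were 0, 1, 1 and 2, and the genes called 744, 236, 1531 and 968. With sh3 C grouped with control the members called were 0 in all 4 comparisons and the genes called 1, 86, 0 and 146. With one knockdown group in the model the members called over both constructs were 0 and the genes 394. With the replicate block the members called were 0, 0, 0 and 3, and the genes called for sh1 were 549. Deviations of libraries with the same letter correlated at -0.062 to 0.058 over 7 pairs, against -0.058 to 0.060 for other letters. Around their own mean the control deviations mirror each other, so each control pair recurs with its sign turned. These ranges therefore cannot decide whether the letters pair the libraries.

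With 1 library left out, members called ranged over 0 to 1 over both constructs, 0 to 1 for sh1, 0 to 1 for sh3 and 1 to 3 for sh1 against sh3. Genes called ranged over 339 to 1892, 160 to 784, 854 to 2926 and 926 to 1765. Where 1 control is left, it is assumed to vary like the other groups. The cause of these shifts was not tested.

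Only differences that were not called turned sign. For TXNIP over both constructs it was -0.0082 with the replicate block and -0.16 without control A (0.24 without control C), and for IRS2 0.083 without control A (-0.35 without control C). For sh1 against control, FOXO3 was -0.0068 with quantile normalization, -0.033 without sh1 A and -0.036 without control C (0.044 without control A). FOXO4 was -0.023 with the replicate block, -0.0054 with sh3 C as a control, -0.017 without sh1 B and -0.017 without control C (0.043 without control A). S1PR1 was 0.046 with sh3 C as a control. PIK3IP1 was -1.1e-05 with the replicate block, -0.055 without sh1 B and -0.04 without control A (0.079 without sh1 A). For sh3 against control, FOXO1 was 0.054 with quantile normalization, 0.0070 with sh3 C as a control, 0.015 without sh3 B and 0.054 without control A (-0.080 without control C). TXNIP was 0.018 without control C (-0.38 without control A). IRS2 was 0.029 with quantile normalization, 0.053 with sh3 C as a control, 0.059 without sh3 B, 0.017 without sh3 C and 0.19 without control A (-0.24 without control C). For KLF2 and IRS2 low levels limit what can be detected.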
